A study of Mus musculus with 14 samples.

Results

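The genes described here encode the hnRNP proteins, the SR proteins and the core of the spliceosome, and they were followed in mouse muscle stem cells (MuSCs) that express Lin28a and in control MuSCs. Members were all genes of the input table whose symbol begins with Hnrnp, with Srsf, Sf3a, Sf3b or Prpf followed by a digit, or with Snrp, leaving out 3 pseudogenes. This gave 64 of 14837 genes, namely 20 hnRNP genes, 10 SR genes and 34 core genes, the last made of 9 SF3, 13 Prpf and 12 Snrp genes. All 64 passed the filter on low counts in the input. Of them 52 had an m6A-RIP row, 36 had an Igf2bp3-RIP peak and 32 had a Lin28a-RIP peak.

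Nuclear pre-mRNA is wrapped by hnRNP proteins and bound by SR proteins, which bias splice-site choice in often opposite directions, while the snRNPs recognise the splice sites and build the spliceosome. Snrp genes encode the Sm ring and the particle-specific proteins of the U1 and U2 snRNPs, SF3 genes the U2-associated complex that grips the branch point, and Prpf genes a mixed group of tri-snRNP, Prp19-complex and U1-associated factors. Lin28a and Igf2bp3 are RNA-binding proteins, and m6A is the methyl mark on adenosine that Igf2bp proteins can read. m6A-RIP, Igf2bp3-RIP and Lin28a-RIP sequence the RNA pulled down with an antibody, and the input is the RNA before the pull-down.

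MuSCs came from mouse skeletal muscle and were cultured on Matrigel in DMEM with FBS. Lin28a+ MuSCs were sorted by flow cytometry from Lin28a-CreERT2; LSL-tdTomato mice, so the group rests on a Cre driven by Lin28a and on a sort for the reporter, and the control carries the genotype label Control only. The paper describes no treatment of the cells that were sequenced and does not mention induction of the CreERT2. The age of the mice is not given in the sources used here. Each group had 2 input, 2 m6A-RIP and 2 Igf2bp3-RIP libraries, and Lin28a+ MuSCs had 2 Lin28a-RIP libraries, so there is no control for that pull-down.

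The question asked of the input was whether the RNA of splicing-factor genes differed between Lin28a+ and control MuSCs. Library sums were 4842915 to 6220960 in the input table and 9215355 to 36610494 in the RIP tables. The study's methods speak in general of biological replicates but do not say which animals or cultures the 2 libraries of a group came from, so p-values measure the spread between these libraries, which may be technical. The 8 muscle stem cell markers summed to 8496 and 8898 CPM (counts scaled to the library sum for marker lists, neighbouring genes and Lin28a-RIP, and to the sum times edgeR's TMM factor for members in the input, m6A-RIP and Igf2bp3-RIP) in control and to 8938 and 9057 CPM in Lin28a+ MuSCs. Myod1 made up more of that sum than any other marker, at 4542 to 4775 CPM, and within the list Cdh15 and Pax7 were higher in Lin28a+ MuSCs and Vcam1, Myf5, Sdc4 and Des lower. Of markers of other cell types, 1 of 5 endothelial markers was in the input table, Pecam1, at 0.392 to 0.501 CPM, and 4 of 5 macrophage markers were, at a sum of 2.43 to 4.97 CPM. Of 5 fibro-adipogenic markers 2 were in the table, Ly6a, which rose from 3.84 and 4.58 CPM in control cells to 13.6 and 12.7 CPM in Lin28a+ MuSCs, and Pdgfra, with 0.224 and 0.235 CPM against 0.0879 and 0.0918 CPM. Of 5 pericyte or smooth muscle markers 4 were in the table and 3 were tested, with Acta2 and Pdgfrb higher and Rgs5 lower. Acta2 made up nearly all of their sum, at 5311 and 5396 CPM in control cells and 7484 and 7495 CPM in Lin28a+ MuSCs. The level of Lin28a itself was not analysed here. Cells differed in other ways that move with every RNA result below. The 8 cycling-cell markers summed to 489 and 506 CPM in control cells and to 806 and 820 CPM in Lin28a+ MuSCs, with 7 of 8 higher and Mki67 lower, and 6 differentiating-myoblast markers summed to 1842 and 1913 CPM in control cells and to 3679 and 3731 CPM in Lin28a+ MuSCs, with 3 higher and 3 lower. Myog carried that rise, with 748 and 774 CPM in control cells against 2785 and 2837 CPM in Lin28a+ MuSCs. Their part in the results was not tested. In bulk RNA, fewer cells of a type and less RNA per cell cannot be told apart.

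RNA of the splicing-factor genes was mostly higher in Lin28a+ MuSCs. By edgeR's quasi-likelihood test with Benjamini-Hochberg adjustment over 11317 genes, 37 of 64 members were higher and 6 were lower at an adjusted p under 0.05, where 28.1% of all tested genes were higher and 28.7% were lower. The median log2 fold change of the members was 0.30, beside 0.01 over all tested genes. By subgroup, 7 of 20 hnRNP genes were higher and 0 lower, 5 of 10 SR genes were higher and 1 lower, and 25 of 34 core genes were higher and 5 lower. Median log2 fold changes were 0.10 for hnRNP, 0.26 for SR and 0.51 for core genes. DESeq2 on the same counts called 24 members higher and 0 lower, where it called 13.1% of all tested genes higher and 13.8% lower, so each of the 6 falls is a call of edgeR alone. Among 115 tested splicing genes outside this set, chosen as a list of known splicing factors, 57 were higher and 25 lower.

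**Figure D1:**
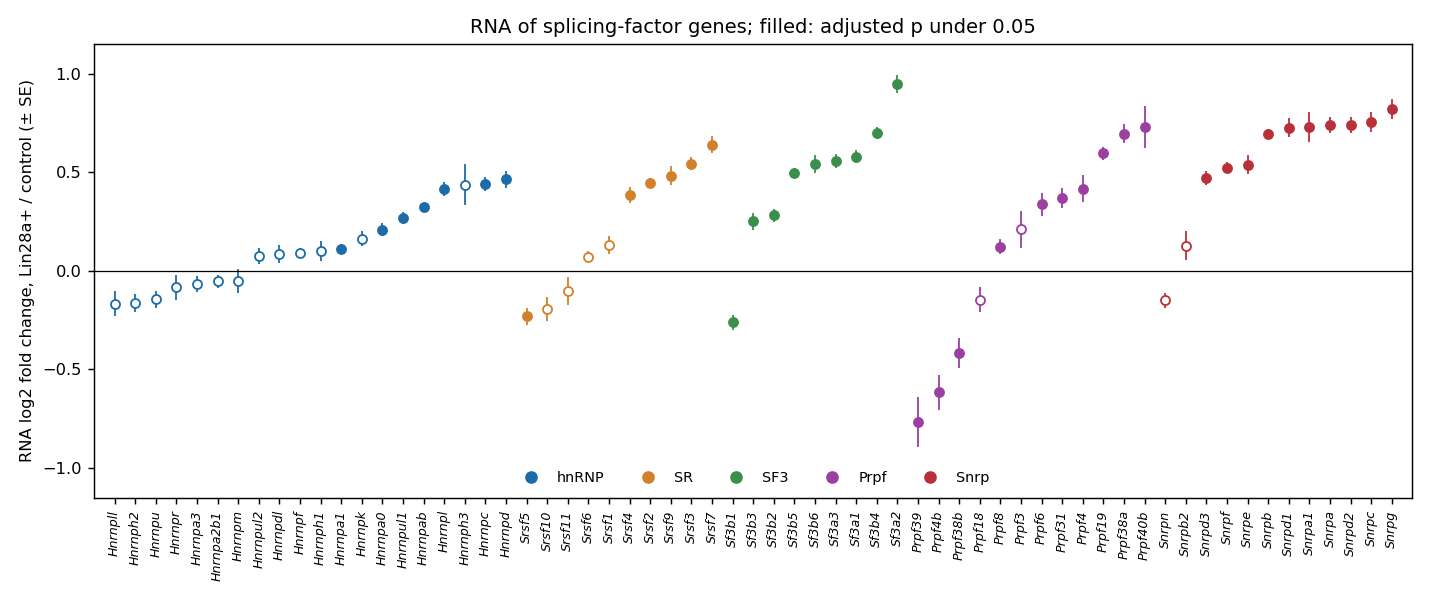
RNA log2 fold change of Lin28a+ over control MuSCs for 63 of the 64 genes (points, with the SE as bars), ordered by family on the x axis and filled where the adjusted p was under 0.05. Snrp genes have a median of 0.71 and hnRNP genes of 0.10, and Prpf genes spread from -0.77 to 0.73.

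The Snrp genes were mostly higher. Of 12, 10 were higher and 0 lower, with a median log2 fold change of 0.71. Snrpg, a ring protein shared by the Sm snRNPs, had input levels of 70.4 and 65.3 CPM in the control libraries against 123 and 116 CPM in the Lin28a+ libraries. Both Lin28a+ libraries lay above both control libraries, a log2 fold change of 0.82 ± 0.051 (SE; adjusted p = 8.72e-05). Snrpc, a U1-specific protein that contacts the 5' splice site, had 55.6 and 50.7 CPM in the control libraries against 90.4 and 88.3 CPM in the Lin28a+ libraries, a log2 fold change of 0.75 ± 0.053 (adjusted p = 0.00013). Snrpb, which encodes the SmB ring protein, had 161 and 162 CPM in the control libraries against 263 and 260 CPM in the Lin28a+ libraries (log2 fold change 0.69 ± 0.026, adjusted p = 1.89e-05). Snrpd1, another Sm ring gene, had 52.5 and 57.0 CPM against 92.0 and 89.6 CPM (log2 fold change 0.73 ± 0.050, adjusted p = 0.000123). Groups did not overlap for any of these 4 genes, and the spread within a group was small beside the difference.

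The 2 Snrp genes not called were Snrpn and Snrpb2. Snrpn, an imprinted gene that encodes SmN, the SmB-like protein best known from brain, had 61.4 and 61.5 CPM in the control libraries against 55.4 and 55.4 CPM in the Lin28a+ libraries. Its log2 fold change was -0.15 ± 0.038 with an adjusted p of 0.107. Its libraries did not overlap between groups, which in the input held for every member except Hnrnpm. Snrpb2, the U2B'' protein of the U2 snRNP, had a log2 fold change of 0.13 ± 0.072 (adjusted p = 0.349).

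Among the SF3 genes, 8 of 9 were higher and 1 was lower. Sf3a2, a subunit of the SF3a complex of the U2 snRNP, had 45.9 and 44.6 CPM in the control libraries against 84.9 and 89.6 CPM in the Lin28a+ libraries. That log2 fold change of 0.95 ± 0.047 (adjusted p = 4.43e-05) was the largest rise of any member. Sf3b4, an SF3b subunit that contacts pre-mRNA near the branch point, had 161 and 167 CPM in the control libraries against 265 and 267 CPM in the Lin28a+ libraries (log2 fold change 0.70 ± 0.030, adjusted p = 3.03e-05). Sf3b1, the large SF3b scaffold around the branch-point adenosine, went the other way. It had 72.5 and 71.0 CPM in the control libraries against 59.9 and 59.7 CPM in the Lin28a+ libraries, a log2 fold change of -0.26 ± 0.038 (adjusted p = 0.00206 in edgeR, and above 0.05 in DESeq2).

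Because 8 of the 9 SF3 genes rose, their promoters were compared, as RefSeq gives them for the GRCm38.p6 assembly. RefSeq windows were matched for 56 of 64 members, of which 7 were SF3 genes, and the 250 bases before the first listed start of each gene were searched on both strands for CCGGAAG and for 4 common promoter elements, the CCAAT box, the E-box CACGTG, the GC-rich element GGCGGG and the TATA box TATAAA. The first, a core that ETS-family factors recognise, was present in 6 of 7 SF3 promoters, in 17 of 56 members and in 9.13% of 17491 promoters of coding genes. It was also present in 2 of 18 hnRNP, 4 of 10 SR, 2 of 11 Prpf and 3 of 10 Snrp promoters, and in 12 of the 33 matched members that rose and 2 of the 5 that fell. GGCGGG was present in 38 of 56 members and 42.0% of all promoters, with 14 of 18 hnRNP, 9 of 10 SR, 5 of 7 SF3, 7 of 11 Prpf and 3 of 10 Snrp genes. CCAAT was present in 27 members and 36.3% of all promoters, with 12 hnRNP, 3 SR, 2 SF3, 6 Prpf and 4 Snrp genes. CACGTG was present in 5 members and 6.64% of all promoters, and TATAAA in 5 and 12.4%. These matches describe letters in the windows and were not tested against the RNA changes, and overlapping matches of different elements were all counted. The 100 bases before the start are shown for the 5 SF3 genes with CCGGAAG in that stretch and, last, for Sf3b1, the SF3 gene that fell and the only matched SF3 gene without it. Capitals mark CCGGAAG or its reverse complement.
Sf3a1 (chr11:4160254-4160353, + strand): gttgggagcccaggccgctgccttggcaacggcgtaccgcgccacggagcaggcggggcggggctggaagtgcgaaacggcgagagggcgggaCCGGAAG
Sf3a2 (chr10:80798635-80798734, + strand): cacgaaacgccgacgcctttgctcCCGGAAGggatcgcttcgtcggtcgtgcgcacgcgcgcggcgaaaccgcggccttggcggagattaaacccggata
Sf3a3 (chr4:124714761-124714860, + strand): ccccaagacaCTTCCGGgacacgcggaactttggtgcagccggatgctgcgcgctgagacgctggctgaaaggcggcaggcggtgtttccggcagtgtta
Sf3b2 (chr19:5295458-5295557, - strand): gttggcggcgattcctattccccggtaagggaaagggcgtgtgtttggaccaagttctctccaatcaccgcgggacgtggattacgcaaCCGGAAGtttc
Sf3b6 (chr12:4817508-4817607, + strand): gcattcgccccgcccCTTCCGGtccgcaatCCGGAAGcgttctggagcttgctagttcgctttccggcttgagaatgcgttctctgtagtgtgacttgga
Sf3b1 (chr1:55027479-55027578, - strand): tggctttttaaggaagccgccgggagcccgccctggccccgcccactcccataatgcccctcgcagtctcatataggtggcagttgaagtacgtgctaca
In Sf3a1 and Sf3b2 the match begins 7 and 11 bases before the start, and in Sf3a2 and Sf3a3 it begins 76 and 90 bases before it. Sf3b6 has 2 matches, at 85 and 70 bases. The match of Sf3b3 begins 229 bases before the start, outside the stretch length shown.

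Prpf genes split into rises and falls. Of 13, 7 were higher and 4 (30.8%) were lower, where 28.1% of all tested genes were higher and 28.7% lower. The share that fell was thus near that of all genes, and DESeq2 called none of these falls. The median log2 fold change was 0.21. Prpf39, a U1 snRNP-associated factor, had 6.56 and 6.11 CPM in the control libraries against 3.54 and 3.88 CPM in the Lin28a+ libraries, a log2 fold change of -0.77 ± 0.13 (adjusted p = 0.0143), the largest fall of any member. Prpf4b, a kinase that phosphorylates spliceosomal proteins, had 15.0 and 13.7 CPM against 9.63 and 8.995 CPM (log2 fold change -0.61 ± 0.089, adjusted p = 0.00227). Prpf38b had a log2 fold change of -0.42 ± 0.077 (adjusted p = 0.00833). These 3 had both Lin28a+ libraries below both control libraries, as the choice of genes required. Without Lin28a+ library a, 3 of the 6 members that fell were still called, Prpf4b and Sf3b1 among them, and without control library 1 Prpf39 was not called.

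Among the Prpf genes that rose, Prpf19, the ubiquitin ligase at the centre of the Prp19 complex, had 86.0 and 88.3 CPM in the control libraries against 133 and 130 CPM in the Lin28a+ libraries (log2 fold change 0.60 ± 0.033, adjusted p = 6.48e-05). Prpf38a, the paralog of Prpf38b, and Prpf40b rose by 0.69 ± 0.048 and 0.73 ± 0.11 on the log2 scale, with adjusted p of 0.000128 and 0.00561. Prpf8, the large protein at the catalytic centre of the spliceosome, changed little, with 258 and 267 CPM in the control libraries against 278 and 294 CPM in the Lin28a+ libraries (log2 fold change 0.12 ± 0.037, adjusted p = 0.0339).

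Of 10 SR genes 5 were higher, 1 was lower and 4 were not called, where 28.1% of all tested genes were higher and 28.7% lower. Srsf7 had 44.6 and 42.6 CPM in the control libraries against 68.6 and 67.1 CPM in the Lin28a+ libraries (log2 fold change 0.64 ± 0.044, adjusted p = 0.000128). Srsf3, the smallest SR protein and with Srsf7 an adaptor for mRNA export, had 73.8 and 74.0 CPM against 108 and 108 CPM (log2 fold change 0.54 ± 0.032, adjusted p = 7.44e-05). Srsf9 had 29.8 and 31.1 CPM against 42.7 and 42.5 CPM (log2 fold change 0.48 ± 0.049, adjusted p = 0.00049). These groups did not overlap, as the choice of genes required. Srsf2, which binds exonic splicing enhancers, rose by 0.45 ± 0.027 on the log2 scale (adjusted p = 8.25e-05).

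Srsf5 was the SR gene called lower, with 46.1 and 47.0 CPM in the control libraries against 39.7 and 39.7 CPM in the Lin28a+ libraries (log2 fold change -0.23 ± 0.044, adjusted p = 0.029). That call was also lost without any of the 4 libraries and with total-count scaling. Srsf1, the founding SR protein, had 51.3 and 54.1 CPM against 58.0 and 57.5 CPM (log2 fold change 0.13 ± 0.045, adjusted p = 0.182). Srsf10, an SR protein known as a splicing repressor, had 22.1 and 23.2 CPM against 19.5 and 20.2 CPM (log2 fold change -0.19 ± 0.062, adjusted p = 0.218). Neither passed the test. Their libraries did not overlap between groups, but in the input this held for every member except Hnrnpm.

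**Figure D2:**
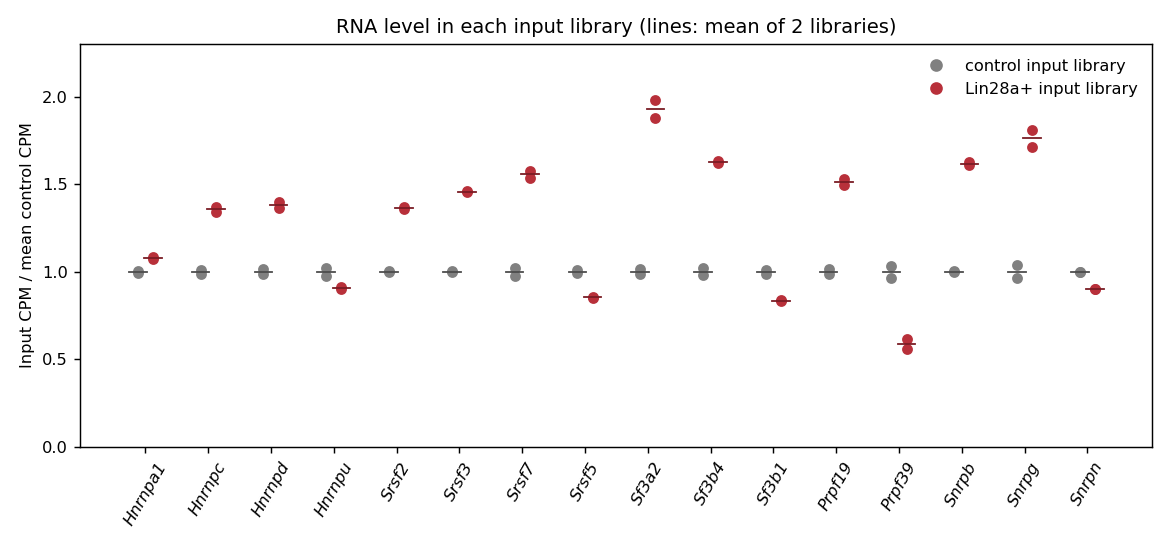
Input level of 16 genes in each library, divided by the mean of the 2 control libraries (y axis), with control libraries in grey, Lin28a+ libraries in red and lines at the means. The Lin28a+ libraries of Sf3a2, Snrpg and Snrpb lie well above the control libraries and those of Prpf39 below them, while Hnrnpa1 and Snrpn stay close to 1.

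The hnRNP genes had the smallest median change of the 3 subgroups, and their log2 fold changes ran from -0.17 to 0.46. Hnrnpd, which binds AU-rich elements and is also called AUF1, had 40.7 and 41.7 CPM in the control libraries against 56.2 and 57.5 CPM in the Lin28a+ libraries (log2 fold change 0.46 ± 0.043, adjusted p = 0.000367). Hnrnpc, which packages nascent RNA and binds uridine tracts, had 78.9 and 77.2 CPM against 107 and 105 CPM (log2 fold change 0.44 ± 0.034, adjusted p = 0.000189). Hnrnpl, which binds CA-rich RNA, had 80.7 and 84.2 CPM against 109 and 111 CPM (log2 fold change 0.41 ± 0.036, adjusted p = 0.000292). All 3 differed by far more than the spread between libraries.

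Hnrnpa1, a repressor of exon inclusion, had 368 and 364 CPM in the control libraries against 394 and 398 CPM in the Lin28a+ libraries (log2 fold change 0.11 ± 0.024, adjusted p = 0.00911). Hnrnpa2b1, which has been described as a reader of m6A, had 118 and 114 CPM against 113 and 111 CPM (log2 fold change -0.05 ± 0.034, adjusted p = 0.447). Hnrnpk, a binder of C-rich RNA, had 63.5 and 64.7 CPM against 71.5 and 72.2 CPM (log2 fold change 0.16 ± 0.037, adjusted p = 0.053). Hnrnpu, a scaffold protein of the nuclear matrix, had 68.0 and 71.3 CPM against 62.9 and 63.4 CPM (log2 fold change -0.14 ± 0.042, adjusted p = 0.0958). Of these 4, Hnrnpa1 alone passed the test.

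The m6A-RIP compared the same genes in the RNA pulled down with the m6A antibody. Of 52 members with a deposited m6A row, 23 were higher and 13 lower in Lin28a+ MuSCs, where 32.5% of 9413 tested genes were higher and 33.7% were lower. By subgroup, 6 of 19 hnRNP genes were higher and 6 lower, 2 of 8 SR genes were higher and 3 lower, and 15 of 25 core genes were higher and 4 lower. Among core genes, 8 of 11 Snrp and 5 of 7 SF3 genes were higher and 0 lower, whereas 2 of 7 Prpf genes were higher and 4 lower. Median log2 fold changes were 0.00 for hnRNP, 0.13 for SR and 0.38 for core genes. With scaling to total counts the median of all genes moved from 0.01 to -0.09 and these medians became -0.10, 0.03 and 0.28. Under that scaling 25.4% of all tested genes were called higher and 40% lower, and the members' calls are not given here.

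Snrpg was the member highest in the m6A-RIP relative to control, with 81.3 and 73.9 CPM in the control libraries against 136 and 140 CPM in the Lin28a+ libraries (log2 fold change 0.83 ± 0.051, adjusted p = 2.97e-08). Sf3b4 followed, with 123 and 124 CPM against 189 and 220 CPM (log2 fold change 0.73 ± 0.061, adjusted p = 4.36e-07). Among hnRNP genes, Hnrnph3 had 8.83 and 8.64 CPM against 12.4 and 12.6 CPM (log2 fold change 0.52 ± 0.14, adjusted p = 0.00604). Hnrnph3 and its relatives encode binders of G-rich RNA. Hnrnpd had 461 and 445 CPM against 589 and 609 CPM (log2 fold change 0.40 ± 0.039, adjusted p = 1.8e-06). Srsf2 had 23.1 and 22.25 CPM against 31.5 and 33.8 CPM (log2 fold change 0.53 ± 0.081, adjusted p = 9.69e-05). Srsf9 had 49.2 and 49.8 CPM against 55.7 and 56.2 CPM (log2 fold change 0.18 ± 0.062, adjusted p = 0.0234). In each of these the Lin28a+ libraries lay above the control libraries, as the choice of genes required.

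Members that fell in the m6A-RIP included Prpf4b, with 65.1 and 57.5 CPM in the control libraries against 35.2 and 35.1 CPM in the Lin28a+ libraries (log2 fold change -0.81 ± 0.074, adjusted p = 1.11e-06). Srsf10 had 8.77 and 9.59 CPM against 4.70 and 6.40 CPM (log2 fold change -0.71 ± 0.19, adjusted p = 0.00479). Srsf5 had 125 and 127 CPM against 102 and 108 CPM (log2 fold change -0.26 ± 0.045, adjusted p = 0.000215). Hnrnpll, a paralog of Hnrnpl, had 136 and 130 CPM against 104 and 107 CPM (log2 fold change -0.34 ± 0.044, adjusted p = 2.27e-05). Groups did not overlap for these 4 genes, as their choice required. Rows named Prpf18 and Hnrnpa3 also fell, by 1.08 and 0.72 on the log2 scale, and are taken up next.

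**Figure D3:**
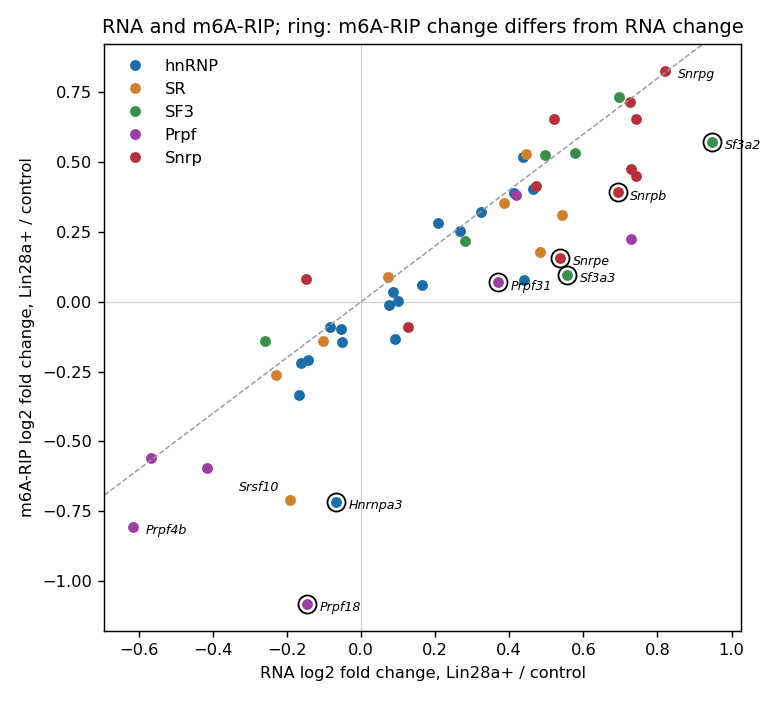
RNA log2 fold change (x axis) and m6A-RIP log2 fold change (y axis) of the 52 genes with an m6A row, colored by family, with the dashed line where both are equal. The 7 ringed genes, which include Prpf18 and Hnrnpa3 far below the line, passed the test of m6A-RIP relative to input.

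When the m6A-RIP change was set against the input change in a single model, 7 of 52 members were lower and 0 higher, where 4.09% of 7943 tested genes were lower and 3.05% were higher, and at an unadjusted p under 0.05 there were 13 members lower and 0 higher, beside 9.93% and 7.06% of all tested genes. The 7 were Prpf18, Hnrnpa3, Sf3a3, Sf3a2, Snrpe, Snrpb and Prpf31. For Sf3a3, Sf3a2, Snrpe, Snrpb and Prpf31 the RNA rose, and in the m6A-RIP Sf3a2 and Snrpb rose while Sf3a3, Snrpe and Prpf31 did not pass the test, with log2 fold changes of 0.10, 0.16 and 0.07. Sf3a2 rose by 0.57 in the m6A-RIP and by 0.95 in the input on the log2 scale, a difference of -0.39 ± 0.087 (adjusted p = 0.0203). Prpf18, Hnrnpa3 and Sf3a3 remained under DESeq2, which called these 3 and 2.28% of all tested genes lower, and without each of the 8 libraries in turn, and without any 1 input library they were the only ones.

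The rows behind these 3 genes carry a limit on which gene they measure. Prpf18 m6A-RIP levels were 156 and 161 CPM in the control libraries against 77.8 and 72.0 CPM in the Lin28a+ libraries, with 2 rows that both name the transcript ENSMUST00000192470. The m6A rows have no positions, but all 2 Lin28a-RIP and 4 Igf2bp3-RIP peaks with that transcript lie 8252 to 10387 bases outside Prpf18, inside the span of Frmd4a. Frmd4a RNA fell by 1.11 on the log2 scale, from 19.8 and 20.9 CPM to 9.89 and 9.35 CPM, while Prpf18 RNA had a log2 fold change of -0.15 ± 0.064 (adjusted p = 0.421). The difference of the Prpf18 rows from Prpf18 input was -0.95 ± 0.13 (adjusted p = 0.00109).

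Hnrnpa3 m6A-RIP levels were 400 and 409 CPM in the control libraries against 239 and 254 CPM in the Lin28a+ libraries, and the difference from its input was -0.66 ± 0.068 (adjusted p = 0.00017). Of its 11 Lin28a-RIP peaks, 9 lie outside the gene at chr2:75659105-75669407, namely 6 at 16425 to 19189 bases on its upstream side, where RefSeq has no gene, and 3 at 6352 to 9799 bases on the other side, within the span of Nfe2l2. Its 6 m6A rows name the same 2 transcripts as those peaks. Nfe2l2 RNA fell by 0.64 on the log2 scale (adjusted p = 6.54e-05), and Hnrnpa3 RNA had a log2 fold change of -0.07 ± 0.041 (adjusted p = 0.406). Within Hnrnpa3, single rows ran from -2.12 to 0.50 on the log2 scale.

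Sf3a3 had a log2 fold change of 0.10 in the m6A-RIP and 0.56 in the input, a difference of -0.48 ± 0.057 (adjusted p = 0.000453). Its levels were 99.1 and 99.8 CPM in control libraries and 108 and 105 CPM in Lin28a+ m6A-RIP libraries. Of its 3 m6A rows, 2 rose by 0.36 and 0.39 on the log2 scale, and the other had -0.15 ± 0.071 (adjusted p = 0.0772). That row and 1 of the 2 that rose name the same transcript as an Igf2bp3-RIP peak inside the span of Fhl3, 6607 bases from Sf3a3. Fhl3 RNA had a log2 fold change of -0.17 ± 0.057 (adjusted p = 0.156). Which gene these rows measure was not tested. Without members that have a RIP peak outside their own span, 4 members were lower relative to input, Sf3a2, Snrpe, Snrpb and Prpf31. These were not called by DESeq2 or in runs without an input library.

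Lin28a-RIP peaks were frequent on hnRNP genes and none was listed on a Snrp gene. Of 20 hnRNP genes 17 had at least 1 Lin28a-RIP peak, a share of 85.0% (95% Wilson interval 64.0 to 94.8), beside 2 of 10 SR, 5 of 9 SF3, 8 of 13 Prpf and 0 of 12 Snrp genes (0 to 24.2%). The Prpf count includes Prpf18, whose peaks lie outside it. Among all genes tested in the input 25.4% had a Lin28a-RIP peak. Over all 64 members the share was 50%, with 202 peaks of a median width of 306 bases. These intervals cover only counting error. The tables list called peaks, so a gene without a peak may still have been bound below the peak threshold, and a control for the Lin28a pull-down was not analysed here. Members with a Lin28a-RIP peak spanned a median of 18007 bases, against 10244 bases for those without. By subgroup the medians were 12212 and 30663 bases for hnRNP, 5314 and 9002 for SR and 25762 and 10052 for core genes, and the part of gene length was not tested.

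**Figure D4:**
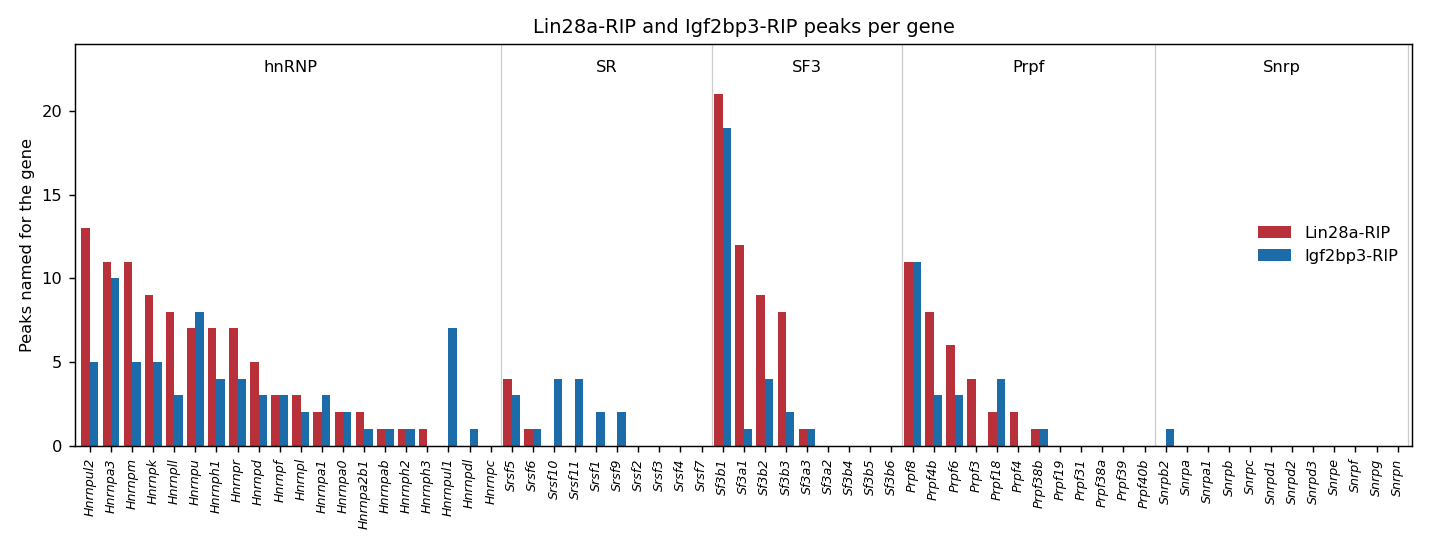
Number of Lin28a-RIP peaks (red bars) and Igf2bp3-RIP peaks (blue bars) named for 63 of the 64 genes, by family. Sf3b1 carries the most of both, 21 and 19, and of the 12 Snrp genes Snrpb2 alone has any, 1 Igf2bp3-RIP peak.

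Sf3b1 had the most Lin28a-RIP peaks of any member, 21, which summed to 3021 and 2976 CPM in the 2 libraries. Set against its input level, this was a log2 ratio of 5.61 ± 0.02 (SD, n = 2), where the median over 3013 bound genes with an input value was 1.71. Sf3b1 is among the 6 members whose RNA fell. Among hnRNP genes Hnrnpul2, an RNA-binding protein related to Hnrnpu, had the most peaks, 13, with 961 and 977 CPM and a log2 ratio of 1.75. Hnrnpm and Hnrnpa3 followed with 11 each, those of Hnrnpa3 subject to the limit above.

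Hnrnpu had a log2 ratio of 6.11 ± 0.02, with 4505 and 4407 CPM over 7 peaks, and Hnrnph1 had 5.42. For SR genes the 2 with peaks were Srsf5, with 4 peaks and a log2 ratio of 3.08, and Srsf6, with 1 peak and -0.69. Hnrnpa1 stood at -0.09 and Hnrnpab at -3.84. Input values may be means over the transcripts of a gene, which was not tested, and these ratios would then also move with the number of transcripts, so they are given per gene, not as an order of genes.

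**Figure D5:**
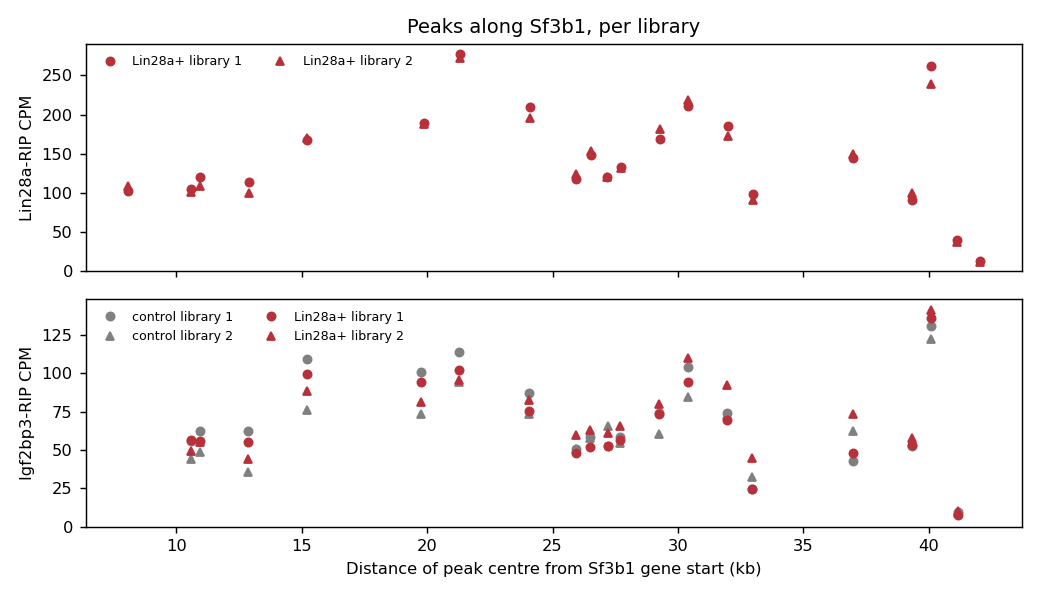
Level of each Lin28a-RIP peak (upper panel) and Igf2bp3-RIP peak (lower panel) of Sf3b1 in CPM of the library sum, against the distance of the peak centre from the start of the gene in kb. Of the 21 Lin28a-RIP peaks 19 overlap an Igf2bp3-RIP peak, and the points of the Igf2bp3-RIP libraries are spread at single peaks in both groups.

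Within Sf3b1, which spans chr1:54985169-55027501, Lin28a-RIP peaks were spread over most of the gene, with centres from 8076 to 42033 bases after its start. Of the 21, 19 overlapped an Igf2bp3-RIP peak. Over all members, 119 of 202 Lin28a-RIP peaks (58.9%, 52.0 to 65.5) shared at least 1 base with an Igf2bp3-RIP peak, and 122 of 152 Igf2bp3-RIP peaks (80.3%, 73.2 to 85.8) overlapped a Lin28a-RIP peak. Over the whole tables these shares were 52.4% of 21616 Lin28a-RIP and 60.4% of 19465 Igf2bp3-RIP peaks. At the gene level 29 members had peaks of both proteins, 3 of Lin28a alone, 7 of Igf2bp3 alone and 25 of neither. Among genes tested in the input 20.2% had peaks of both and 62% of neither, beside 45.3% and 39.1% of members. The 25 without either held 11 of the 12 Snrp genes.

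In 4 of the 56 members with a matched RefSeq window a Lin28a-RIP peak covered bases among the first 50 transcribed from the start used for the RefSeq promoter window. For Hnrnpu that start lies inside the gene span, which reaches to chr1:178338891, so the centre of its peak is 1574 bases after the outer end of the gene. The peak of Hnrnpu at chr1:178336792-178337842 had 27445 and 22689 counts, that of Hnrnpm at chr17:33685120-33685526 had 4891 and 5014, that of Sf3b2 at chr19:5295146-5295461 had 1398 and 1547, and that of Prpf8 at chr11:75486798-75487088 had 1020 and 889. GGAG, the motif recognised by the zinc knuckles of Lin28a, was found on the transcribed strand in the 50 bases from the start of 1 of these 4 genes, Prpf8, and in 37.2% of all 17491 windows.

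Igf2bp3-RIP peaks were on 36 of 64 members (56.3%, Wilson interval 44.1 to 67.7), where 32.9% of genes tested in the input had one. They were on 18 of 20 hnRNP, 6 of 10 SR, 5 of 9 SF3, 6 of 13 Prpf and 1 of 12 Snrp genes. The SF3 and Prpf counts include Sf3a3 and Prpf18, whose Igf2bp3-RIP peaks lie outside them. For m6A rows the shares were more even, with 19 of 20 hnRNP, 8 of 10 SR and 25 of 34 core genes, beside 65.6% of genes tested in the input. Of the 12 Snrp genes 11 had an m6A row.

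RNA changes of members with and without a Lin28a-RIP peak are given as a description. Members with a Lin28a-RIP peak had a median RNA log2 fold change of 0.10, with 12 of 32 higher and 5 lower, and those without a peak had 0.53, with 25 of 32 higher and 1 lower. Over all genes tested in the input, the 2870 with a Lin28a-RIP peak had a median of -0.20, with 20.5% higher and 42.6% lower, and the 8442 without had 0.08, with 30.7% higher and 24% lower. Among core genes the medians were 0.21 for 13 genes with a peak and 0.69 for 21 without. Among hnRNP genes they were 0.09 for 17 with a peak and 0.27 for 3 without, and among SR genes -0.08 for 2 with a peak and 0.42 for 8 without.

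No member passed the test between Lin28a+ and control MuSCs in the Igf2bp3-RIP without a replicate block. By edgeR, 0 of 36 members were called in either direction, where 0.133% of 4524 tested genes were higher and 0.155% were lower, and DESeq2 called 0 members as well, beside 1.11% (higher) and 1.44% (lower) of all genes. At an unadjusted p under 0.05, which 8.44% of all tested genes met, there was 1 member of 36, Srsf9, with 30.2 and 27.4 CPM in the control libraries against 57.5 and 43.3 CPM in the Lin28a+ libraries (log2 fold change 0.81 ± 0.25, adjusted p = 0.464). With the replicate block Srsf9 was called higher (log2 fold change 0.79 ± 0.17, adjusted p = 0.0212), where 3.51% of all genes were called higher and 4.66% lower. Relative to input, without the block, its log2 difference was 0.09 ± 0.23 (adjusted p = 0.852). Of its 2 Igf2bp3-RIP peaks the one with more counts is centred beyond the end of Srsf9, and which gene it measures was not tested. Next were Hnrnpul1, with 715 and 610 CPM against 886 and 914 CPM (adjusted p = 0.703) and 2 of 7 peaks within Axl, and Srsf6, with 139 and 113 CPM against 110 and 81.0 CPM (adjusted p = 0.776). Sf3b1 had 1291 and 1236 CPM in the control libraries against 1191 and 1397 CPM in the Lin28a+ libraries, with overlapping groups. Libraries of a group differed by up to 3.7 times for a member in this pull-down. In data simulated and tested without the replicate block, only 7% of 2-fold changes were recovered, so that test would miss most differences of this size. Recovery with the block was not simulated.

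Relative to input, 0 of 36 members were called in the Igf2bp3-RIP, where 0.357% of 3922 tested genes were higher and 0.688% were lower. DESeq2 called 0 as well, and at an unadjusted p under 0.05 in edgeR 6 of 36 members were lower and 0 higher, where 11.6% of all tested genes were lower and 12.5% higher. The median log2 difference of the members was -0.40, beside 0.03 over all tested genes, and 18 of 18 hnRNP genes lay below 0. These values moved with the scaling and with single libraries, and no replicate block was fitted here. With scaling to total counts the members' median was -0.27, beside 0.17 over all genes, so both were higher, and 14 hnRNP genes lay below 0. Without control Igf2bp3-RIP replicate 1 the members' median was -0.14, beside 0.06 over all genes, and 9 hnRNP genes lay below 0. Without Lin28a+ replicate 2 it was -0.10, beside 0.06, and 14 lay below 0. Without control replicate 2 or Lin28a+ replicate 1 the members' medians were -0.66 and -0.65, beside 0.04 and 0.02. The smallest p-values belonged to Sf3a1 (-0.93 ± 0.17, unadjusted p = 0.00123, adjusted p = 0.0617), Sf3b3 (-0.79 ± 0.15, adjusted p = 0.0617) and Hnrnpl (-0.78 ± 0.20, adjusted p = 0.087), so none passed the threshold. Sf3a1 had 34.5 and 28.8 CPM in control libraries and 30.4 and 27.8 CPM in Lin28a+ Igf2bp3-RIP libraries, while its input rose by 0.58 on the log2 scale. A run without 1 library leaves that group with 1, so the spread behind the calls below came from the other groups. Without Lin28a+ Igf2bp3-RIP replicate 1, 6 members were called lower, where 7.12% of all tested genes were. Without Lin28a+ replicate 2 there were 2, beside 2.47% of all genes, and without control replicate 2 there were 2, beside 1.94%.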

How the data were processed

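Input, m6A-RIP, Igf2bp3-RIP and Lin28a-RIP libraries of control and Lin28a+ MuSCs were analysed from the tables the authors deposited. The deposited input values are estimated counts of each gene, which may be means over transcripts (2 of 64 members had whole numbers in all 4 libraries and 20 had whole multiples of 1/k with k of 2 to 20, within 0.02, while 42 had neither), so input levels and RIP-to-input ratios set side by side for different genes are rough descriptions. For the RIP tables the authors deposited counts per peak or row, unscaled between libraries, which were summed per gene. According to the submitters' processing notes the tools were FastQC, HISAT2 2.0.4, MACS2 1.4.3 and DESeq2 1.42.0, with the builds GRCh38 and mm10. The program that counted reads is not given in the sources used here, nor whether peaks were called on pooled libraries. Gene spans and promoters were those of RefSeq for GRCm38.p6, the same assembly as mm10.

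Estimated counts were rounded. Genes were tested with edgeR 4.0.16 (quasi-likelihood test, TMM scaling, filterByExpr, adjusted p under 0.05 by Benjamini-Hochberg over all tested genes), and DESeq2 1.42.0 was an alternative. RIP relative to input was the interaction of cells and assay, with TMM within each assay. SE of a log2 fold change was its size over the root of F. The simulated data had 2-fold changes in 197 to 200 genes per comparison and were tested without a replicate block. Of these changes 87.3% were recovered in the input, 97.5% in m6A-RIP, 83.5% in m6A-RIP relative to input and 7.50% in Igf2bp3-RIP relative to input. RIP-to-input ratios used log2(CPM + 1), a scale that understates the ratio of low genes. Lin28a+ input columns carry m6A names and both Lin28a+ m6A-RIP columns share a name, so these libraries were assigned to their group without a number and are called a and b. Among genes with whole numbers, chi-square values per degree of freedom for the 2 input libraries of a group were 1.97 (control) and 1.80 (Lin28a+), above the 1 of sampling noise. Over the input as a whole, with rounded values and low genes left out, they were 5.10 and 1.04. Per gene they were 7.25 and 7.83 in m6A-RIP and 347 and 352 in Igf2bp3-RIP.

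Any member may be named, except 1 that is counted among the members but not reported here by itself. Values per library are given for the largest called rises and falls of each subgroup. In RNA and m6A-RIP these were taken among members whose libraries did not overlap between groups, so their non-overlap is no separate support. Values are also given for the members with the most Lin28a-RIP peaks or the highest ratio, and for 16 fixed members. Members and lists were chosen with earlier results of these data known.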

Additional observations from a re-analysis of the deposited data

How the results depend on the processing

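Directions of the called members did not reverse under any alternative run. DESeq2 in place of edgeR gave 24 members higher and 0 lower in RNA (13.1% and 13.8% of all genes) and 3 lower in m6A-RIP relative to input (2.28% of all genes). The cause was not tested. Leaving out a library gave 35 to 37 members higher and 3 to 5 lower in RNA, where 23.1% to 24.5% of all genes were higher and 23.1% to 25.9% lower, and in m6A-RIP per gene 21 to 23 higher and 11 to 13 lower, beside 29.7% to 30.3% and 31.4% to 32.2% of all genes. Relative to input it gave 3 to 7 lower for m6A-RIP and 0 to 6 lower for Igf2bp3-RIP, where 2.15% to 4.51% and 0% to 7.12% of all genes were lower, with 3 for m6A-RIP whenever an input library was left out. Leaving out members with a RIP peak outside their own RefSeq span, an alternative chosen after seeing the data, gave 4 lower in m6A-RIP relative to input. DESeq2 called none of these 4. Scaling to total counts moved the RNA medians to 0.12 for hnRNP, 0.28 for SR and 0.54 for core genes and the m6A-RIP medians to -0.098, 0.031 and 0.28. Over single left-out libraries the RNA medians ran from 0.08 to 0.11, 0.24 to 0.27 and 0.49 to 0.52, and the m6A-RIP medians from -0.040 to 0.010, 0.11 to 0.14 and 0.33 to 0.35. Where each peak had to cover at least 50% of the other, 50.5% of Lin28a-RIP peaks of members overlapped an Igf2bp3-RIP peak and 67.1% the reverse, beside 43% and 47.7% over the whole tables. For the Igf2bp3-RIP the labels do not say that a replicate number marks a batch. The groups' differences of replicates 2 and 1 had a correlation of 0.68 across 4524 genes. Library sums in control and Lin28a+ MuSCs were 9215355 and 12617254 for replicate 1 and 27592959 and 34142094 for replicate 2. A fit with the replicate block called 1 member higher, Srsf9. Over all genes the block moved the calls from 6 higher and 7 lower to 159 and 211. No paired analysis was possible for the input and m6A-RIP because the Lin28a+ input columns carry the names of m6A libraries and both Lin28a+ m6A-RIP columns share 1 name, so no replicate number was taken from them. Where a library was left out its group kept 1, so the spread behind those calls came from the other groups. The 2 libraries per group limit every value here.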
